A study of Homo sapiens with 17 samples.

Results

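The 8 genes described here are NEUROD1, NEUROG1, NEUROG2, NHLH1, NHLH2, TCF3, TCF4 and TCF12. They were chosen by symbol as transcription factors that the ID proteins can hold back, directly or through their E protein partners, and all 8 are present among the 60662 genes that both count tables share. They were followed in CHP-134, an established human neuroblastoma line with amplified MYCN that is sensitive to retinoic acid. In culture, 2 libraries came from cells given the solvent DMSO, and 2 each from cells kept in ATRA (all-trans retinoic acid, 2 µM) over 1, 3 or 6 days. The labels give a single DMSO group and none matched to each ATRA time. In every comparison with DMSO, ATRA and time in culture therefore cannot be told apart. In mice, luciferase-labelled CHP-134 cells formed tumors under the skin of female athymic nude animals, which lack T cells but keep other host cells. RA tumors (4 libraries) came from animals dosed orally with 13-cis-retinoic acid at 25 mg/kg, 2 doses per day. Control tumors (5 libraries) came from animals without the drug, which the labels call untreated and the paper vehicle-treated. The paper describes a dosing schedule of weeks, and collected the tumors measured for drug within weeks of the last dose. How long after the last dose the sequenced tumors were taken is not stated. The whole experiment rests on a single cell line, and the kit that made the libraries differed between cells and tumors.

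Basic helix-loop-helix (bHLH) factors bind DNA as dimers at short sites called E-boxes, whose letters are CANNTG. The E proteins, encoded by TCF3 (E2A), TCF4 (E2-2) and TCF12 (HEB), are made in most tissues and pair with tissue-specific partners. Among these partners are the neurogenins NEUROG1 and NEUROG2, which start neuronal fate, NEUROD1, which acts after them in differentiation, and NHLH1 and NHLH2, which appear in young postmitotic neurons. ID proteins carry the dimerization domain but no DNA-binding domain, so an E protein bound to an ID protein cannot reach an E-box. The questions put to the data were which partners and which E proteins changed in level when CHP-134 cells met retinoic acid, and whether cultured cells and tumors did so alike.

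The stretch before the start of each gene is shown first, because some proneural genes are themselves read from E-boxes. RefSeq (GRCh38.p14) gave 22 windows of 250 bases before an annotated start for the 8 genes, of which TCF4 had 10, TCF12 5 and NHLH2 2. The E-box CAGATG, searched on both strands (CAGATG or CATCTG), was found in 3 windows, 1 each of NHLH1, NHLH2 and TCF4, or 13.6% of these windows against 12.2% of all 35116 windows in the table. Any CANNTG was found in 45.5% of the windows of these genes and in 61.8% of all windows. The 3 sites follow in 30-base stretches read along the gene's strand, with the E-box in capitals.
NHLH1: atgcatggagaaCAGATGtccctgctcccc
NHLH2: cccacactgtgaCAGATGtcaagtccaatt
TCF4: ccttcctttctgCAGATGgtcatggcagag
The 30-base stretch of NHLH1 lies at chr1:160366849-160366878 on the plus strand, and its E-box begins 210 bases before the start. In the stretch of NHLH2 (chr1:115841246-115841275, minus strand) the E-box begins 137 bases before the start. In that of TCF4 (chr18:55401858-55401887, minus strand) it begins 187 bases before the start. These NHLH2 and TCF4 windows lie wholly within annotated exons in GENCODE v44, whereas those of NHLH1 and NEUROG2 hold none.

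NHLH1 and NEUROG2 showed the largest rises among the members in culture, so their windows are given whole. In that of NHLH1 (chr1:160366821-160367070, plus strand) the capitals mark the E-box.
NHLH1: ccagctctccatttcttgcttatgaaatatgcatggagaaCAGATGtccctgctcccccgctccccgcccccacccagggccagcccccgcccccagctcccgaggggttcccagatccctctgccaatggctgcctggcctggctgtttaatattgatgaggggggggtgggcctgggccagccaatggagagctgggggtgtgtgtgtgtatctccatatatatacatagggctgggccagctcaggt
The NEUROG2 window (chr4:112516181-112516430, minus strand) holds no CANNTG. Its capitals mark TATAA, the core of a TATA box, which begins 27 bases before the start.
NEUROG2: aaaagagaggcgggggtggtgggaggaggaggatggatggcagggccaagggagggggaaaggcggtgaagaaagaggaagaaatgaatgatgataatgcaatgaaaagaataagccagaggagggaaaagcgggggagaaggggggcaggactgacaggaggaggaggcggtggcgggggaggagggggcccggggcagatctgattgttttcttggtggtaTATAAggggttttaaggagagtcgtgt
TATAA or TTATA was found in 18.9% of all windows. AGGTCA (or TGACCT), the half-site that retinoic acid receptors recognize, was found in 2 windows of these genes, 1 of NEUROG1 and 1 of TCF4, and in 12.1% of all windows. These are matches of letters only, and binding was not measured.

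Total counts per library were 31607051 to 39422897 in culture and 17266558 to 29078889 in tumors. Levels are CPM, counts relative to the library total after TMM scaling, scaled within the culture series, within the tumors, or over all 17 libraries where cells and tumors are set side by side. A gene was called when its FDR was under 0.05 in edgeR's quasi-likelihood test, adjusted over all genes tested, and its level differed by more than 2-fold. Values after ± are SDs for levels and SEs for log2 fold changes. In bulk libraries, fewer cells of a type and less RNA per cell cannot be told apart. The paper reports that most cells of this line die by the last ATRA time used here. It describes the few survivors as neuron-like in shape. Levels at 6 days of ATRA may therefore come largely from surviving cells. Whether the 6-day differences reflect survival of a subset or change within cells was not tested. The culture replicates are described as independent, without a statement of how they were grown. Their p-values rest on the spread between the libraries of each group, which was small (estimated biological variation of 2.65% in cells and 13.9% in tumors). How far separate repeats of the culture experiment would vary is not known from it. Of 10 markers of adrenergic neuroblastoma, 8 to 10 exceeded 1 CPM in all libraries of a group. The 8 endothelial markers summed to 145 to 156 CPM at 6 days of ATRA and 1.58 to 2.06 CPM with DMSO, nearly all of it CLDN5 (149 and 1.62 CPM on average, singled out after its values were seen), while TEK and EMCN were at 0 in both groups. Markers of leukocytes summed to 2.17 to 3.41 CPM in RA tumors and 2.56 to 4.37 CPM in control tumors. Those of fibroblasts summed to 62.3 to 76.0 CPM in RA tumors and 58.8 to 149 CPM in control tumors. The median log2 fold change of the 7 fibroblast markers tested was −0.79, and none of them had an FDR under 0.05. The summed level of 6 proliferation genes was 371 to 375 CPM at 6 days of ATRA and 2374 to 2407 CPM with DMSO, and its part in the results below was not tested.

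**Figure D1:**
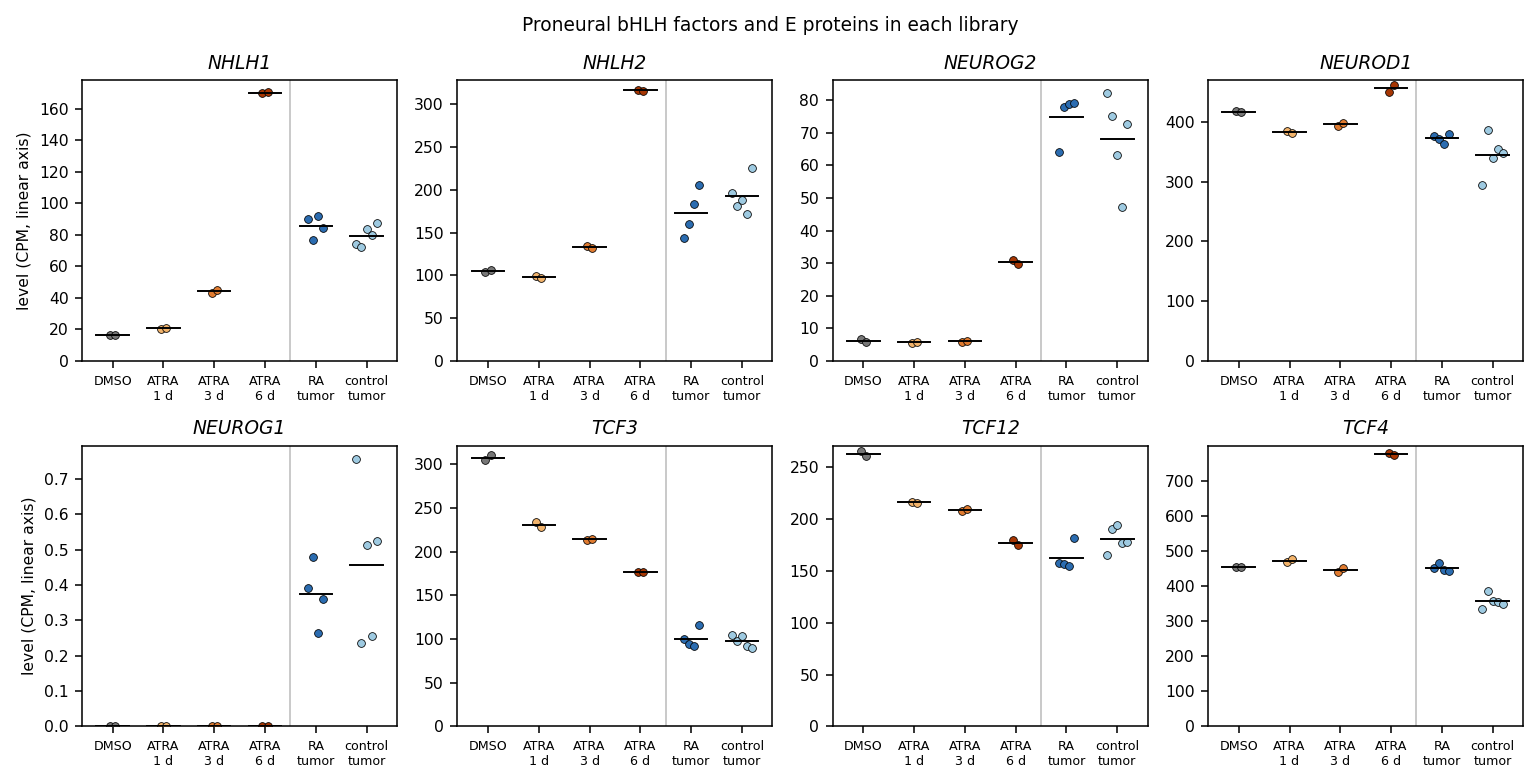
Level of each gene in all 17 libraries (CPM, 17-library scaling, linear axes), with points for libraries and a line at each group's mean. NHLH1 averaged 170 CPM at 6 days of ATRA and 16.6 CPM with DMSO, and NEUROG1 was at 0 in every library of cells.

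NHLH1 (ENSG00000171786, chromosome 1, 160367071 to 160372846, plus strand, hg38), a factor of newly formed neurons, was the first member to pass the threshold. The DMSO libraries held 15.6 and 15.5 CPM, the 1-day libraries 19.4 and 19.9 CPM, the 3-day libraries 41.7 and 43.5 CPM and the 6-day libraries 156 and 156 CPM. No library of one time overlapped with that of another. At 1 day it was 1.26-fold above DMSO (log2 fold change 0.34 ± 0.05, FDR 5.61e-06), under the fold threshold. At 3 days it had risen 2.74-fold (1.45 ± 0.05, FDR 2.31e-24) and at 6 days 10.03-fold (3.33 ± 0.04, FDR 2.72e-38). It also rose between 1 and 3 days (1.12 ± 0.05) and between 3 and 6 days (1.87 ± 0.04), the only member called in both steps.

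NHLH2 (ENSG00000177551, chromosome 1, 115836377 to 115843917, minus strand), the paralog of NHLH1, rose later and from a higher level. Levels were 97.5 and 99.7 CPM in DMSO, 94.1 and 92.1 CPM after 1 day, 130 and 127 CPM after 3 days and 291 and 289 CPM after 6 days. The 3-day libraries lay above DMSO by less than 2-fold (0.38 ± 0.03, FDR 3.07e-14), and at 6 days it had risen 2.94-fold (1.56 ± 0.03, FDR 1.08e-34). Per kilobase of transcript, NHLH2 measured 116 ± 0.53 and NHLH1 61.1 ± 0.02 at 6 days of ATRA, against 39.3 ± 0.65 and 6.09 ± 0.03 with DMSO (CPM per kb, n = 2 each).

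NEUROG2 (ENSG00000178403, chromosome 4, 112513516 to 112516180, minus strand), a neurogenin that turns progenitors into neurons, rose only in the last interval. DMSO cells held 6.23 and 5.34 CPM, 1-day cells 5.28 and 5.59 CPM, 3-day cells 5.52 and 6.03 CPM, and 6-day cells 28.5 and 27.3 CPM. The groups of the first 3 days overlapped with DMSO and with each other. The 6-day libraries stood apart, 4.80-fold above DMSO (2.26 ± 0.08, FDR 1.05e-23) and 4.82-fold above 3 days (2.27 ± 0.09, FDR 3.28e-23). NEUROG2 shares 92 exonic bases with its antisense gene NEUROG2-AS1. That gene held 33 and 26 counts at 6 days against 937 and 928 for NEUROG2. How reads of the shared bases were divided was not tested.

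NEUROD1 (ENSG00000162992, chromosome 2, 181668295 to 181680827, minus strand), a differentiation factor downstream of the neurogenins, was the most abundant member per kilobase in every group and was called in no comparison. Its CPM was 393 and 391 in DMSO, 364 and 364 after 1 day, 378 and 383 after 3 days and 414 and 423 after 6 days. The shift at 6 days was 1.07-fold (0.09 ± 0.02, FDR 0.000151). NEUROD1 is overlapped on its own strand by CERKL, with 236 exonic bases in common, and expected counts share ambiguous reads between such genes. CERKL rose at 6 days (1.20 ± 0.03), at 177 and 184 CPM with ATRA against 78.0 and 79.1 CPM with DMSO, so the small shifts of NEUROD1 are uncertain. Of the summed proneural level per kilobase (NEUROD1, both NHLH and both NEUROG genes), NEUROD1 made up 47.1% ± 0.49 at 6 days of ATRA and 76.7% ± 0.20 with DMSO (n = 2 each).

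NEUROG1 (ENSG00000181965, chromosome 5, 135534282 to 135535964, minus strand), the sister neurogenin, had 0 counts in all 8 libraries of cells. It was therefore not tested in culture. With a floor of 3 counts over the 2 DMSO libraries, a level of up to 0.0437 CPM is allowed there (17-library scale, counting error only).

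The E protein genes split. TCF4 (ENSG00000196628, chromosome 18, 55222185 to 55664787, minus strand), which encodes E2-2, was higher at 6 days, while TCF3 (ENSG00000071564, chromosome 19, 1609291 to 1652615, minus strand) and TCF12 (ENSG00000140262, chromosome 15, 56918623 to 57299281, plus strand) were lower from the first day. None of them passed the 2-fold threshold. TCF4 measured 425 and 425 CPM in DMSO cells, 444 and 453 CPM in 1-day cells, 424 and 432 CPM in 3-day cells and 714 and 707 CPM in 6-day cells. The 6-day libraries lay 1.67-fold above DMSO (0.74 ± 0.02, FDR 1.16e-27) and 1.66-fold above 3 days (0.73 ± 0.02, FDR 4.31e-27), whereas the difference at 1 day was 0.08 ± 0.02 (FDR 0.00436). For TCF3, DMSO libraries gave 286 and 291 CPM, 1-day libraries 222 and 217 CPM, 3-day libraries 206 and 206 CPM and 6-day libraries 162 and 162 CPM. Its ratio to DMSO was 0.760 after 1 day (−0.40 ± 0.02, FDR 1.99e-16) and 0.561 after 6 days (−0.83 ± 0.02, FDR 2.80e-27). TCF12 gave 249 and 244 CPM in DMSO, 205 and 205 CPM after 1 day, 199 and 201 CPM after 3 days and 165 and 160 CPM after 6 days, when its ratio to DMSO was 0.659 (−0.60 ± 0.02, FDR 1.62e-22). Between 1 and 3 days TCF12 did not pass the test (−0.04 ± 0.02, FDR 0.281).

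**Figure D2:**
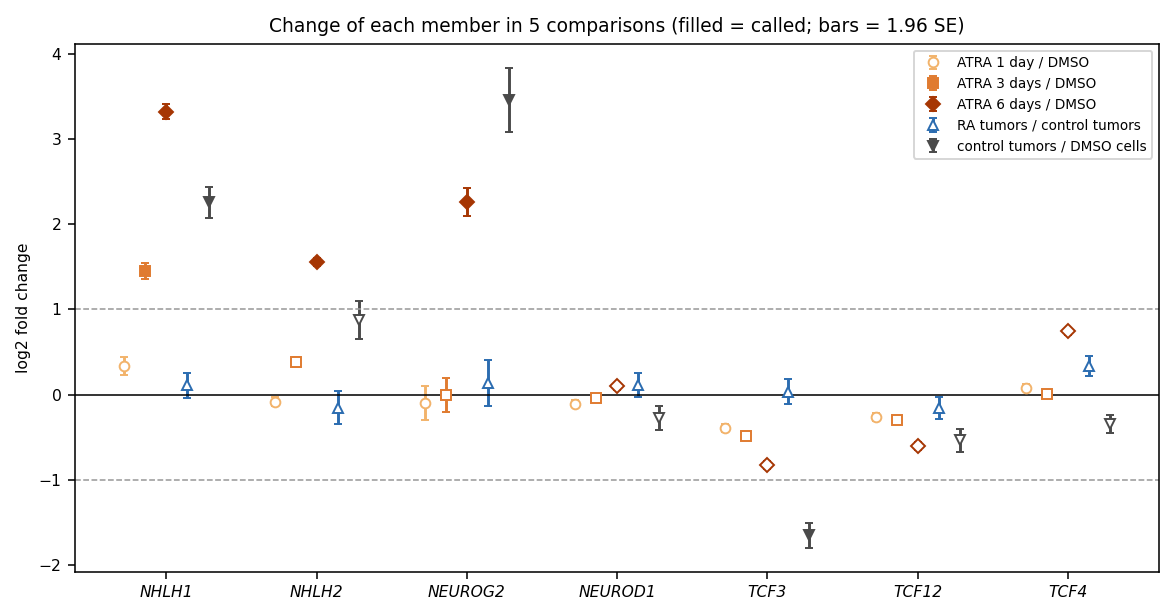
Log2 fold change of 7 members (NEUROG1 has no counts in cells) in 5 comparisons, with 95% intervals from the SE and dashed lines at 2-fold; filled symbols were called. NHLH1, NHLH2 and NEUROG2 lie above the upper line at 6 days of ATRA, and no member does in RA tumors.

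Counted over the 7 members tested in cells, none was called at 1 day, when edgeR called 2.74% of all genes (1.95% up, 0.791% down). At 3 days 1 rose, against 7.87% of all genes called (5.45% up, 2.43% down). At 6 days 3 rose, against 31.2% called (18.8% up, 12.3% down). From 1 to 3 days 1 rose, against 4.09% called (2.87% up, 1.22% down), and from 3 to 6 days 3 rose, against 21.1% called (12.7% up, 8.41% down). No member fell by more than 2-fold at any of these times. At an FDR under 0.05 without the fold threshold, 6 of 7 members differed from DMSO at 1 day, 4 at 3 days and 7 at 6 days, where 26.4%, 45% and 75.1% of all genes did. The median log2 fold change of the members was −0.09 at 1 day, −0.01 at 3 days and 0.74 at 6 days, against 0.003, 0.009 and 0.04 over all genes.

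Because the E proteins are alternative partners, their summed level and its make-up are given per kilobase. In CPM per kb it was 154 ± 0.13 in DMSO, 136 ± 0.16 after 1 day, 129 ± 0.97 after 3 days and 149 ± 1.1 after 6 days (n = 2 each). The total at 6 days was thus close to that with DMSO, but its composition was not. TCF4 made up 59.2% and 59.3% of the sum at 6 days of ATRA, against 34.3% and 34.2% with DMSO. TCF3 made up 22.8% and 23.0% at 6 days, against 39.2% and 39.9% with DMSO, and TCF12 18.0% and 17.7% against 26.4% and 25.9%. These shares use the length of 1 reference transcript per gene, and TCF4 and TCF12 have several starts, so they order the groups better than they order the genes.

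The ID genes, which encode the inhibitors of the E proteins, all fell at 6 days (4 of 4, with 12.3% of all genes falling). They were included here with results of these libraries known, and their direction is no independent evidence. ID1 was at 2.19 and 2.32 CPM at 6 days of ATRA against 102 and 103 CPM with DMSO (−5.51 ± 0.07), and ID3 at 29.7 and 30.7 CPM against 159 and 160 CPM (−2.40 ± 0.03). ID2 (−3.09 ± 0.06) and ID4 (−1.31 ± 0.08) fell as well. At 3 days none of the 4 passed the 2-fold threshold, though 3 had an FDR under 0.05, as had 45% of all genes. ID1 was at −0.83 ± 0.04 (FDR 5.24e-20) and ID2 at −0.89 ± 0.05 (FDR 1.71e-18), both lower than with DMSO. ID3 was at 0.12 ± 0.03 (FDR 0.000307) and ID4 at 0.04 ± 0.07 (FDR 0.646). The summed ID level per kilobase divided by that of the E proteins was 2.11 and 2.11 in DMSO, 2.72 and 2.60 after 1 day, 2.15 and 2.06 after 3 days and 0.275 and 0.282 after 6 days. Both libraries at 1 day lay above those with DMSO, and both at 6 days lay far below every other library of cells.

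**Figure D3:**
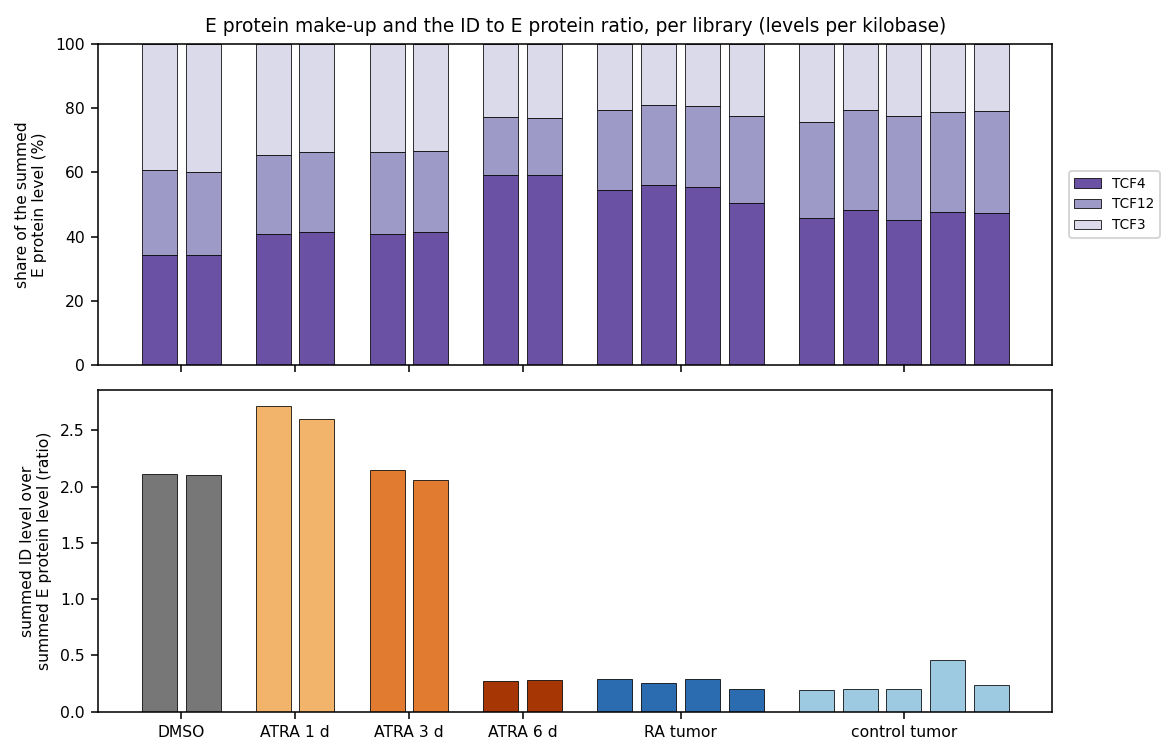
Share of TCF4, TCF12 and TCF3 in the summed E protein level of each library (top, %) and the summed ID level over the summed E protein level (bottom, ratio), both from CPM per kilobase. TCF4 makes up 59.2% and 59.3% at 6 days of ATRA, and the ratio is under 0.5 at 6 days and in all 9 tumors.

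In tumors, no member was called between treated and control animals (0 of 7 tested, with 0.284% of all genes called by edgeR, 0.246% up and 0.0379% down). TCF4 was the only member with an FDR under 0.05, as had 1.62% of all genes. It was at 479, 491, 472 and 461 CPM in RA tumors, against 355, 408, 375, 377 and 369 CPM in control tumors, and the groups did not overlap. The difference was 1.26-fold (0.34 ± 0.06, FDR 0.0114), and higher in 4 of 4 RA tumors than in any control tumor. Its FDR was 0.0616 without RA tumor 2, and over all alternatives it ran between 4.835e-06 and 0.1166. TCF4 made up 54.1% ± 2.6 of the summed E protein level in RA tumors (SD, n = 4), against 46.9% ± 1.3 in control tumors (n = 5), and the lowest RA tumor (50.4%) lay above the highest control tumor (48.2%). TCF12 made up 24.8% to 27.2% in RA tumors and 29.8% to 32.4% in control tumors, and its own difference did not pass the test (−0.16 ± 0.07, FDR 0.267).

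The neuronal members overlapped between RA and control tumors. NHLH1 was at 96.2, 80.8, 97.5 and 87.7 CPM in RA tumors, against 78.3, 76.2, 88.3, 84.7 and 92.0 CPM in control tumors (0.11 ± 0.08, FDR 0.536). NHLH2 was at 153, 169, 194 and 214 CPM in RA tumors, against 208, 191, 198, 182 and 238 CPM in control tumors (−0.16 ± 0.10, FDR 0.495). NEUROG2 was at 68.2, 82.1, 83.3 and 82.3 CPM in RA tumors, against 87.1, 79.4, 66.4, 50.3 and 76.6 CPM in control tumors (0.14 ± 0.14, FDR 0.689). The 95% intervals of these differences ran from −0.04 to 0.26 for NHLH1, from −0.35 to 0.04 for NHLH2 and from −0.13 to 0.40 for NEUROG2, so a 2-fold change lay outside each of them. NEUROD1 (0.11 ± 0.07, FDR 0.484) and TCF3 (0.03 ± 0.08, FDR 0.883) did not pass the test either. At an unadjusted p under 0.05, TCF4 and TCF12 were the members that differed. NEUROG1 held 7, 13, 6 and 11 counts in RA tumors and 14, 5, 10, 5 and 10 counts in control tumors, under the filter on low counts.

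The effect of the drug in tumors was compared with that of 6 days of ATRA in culture by an interaction term over all 17 libraries, in which 20.9% of all genes were called (13.1% with a negative and 7.78% with a positive difference) and the median over all genes was −0.12. The agents, doses, times, kits and starting levels differ between the settings, so the term compares these experiments and not the compounds. On the 17-library scale NEUROG2 averaged 68.1 CPM in control tumors and 6.16 CPM in DMSO cells. The same means were 79.4 and 16.6 CPM for NHLH1 and 192 and 105 CPM for NHLH2. NHLH1 (−3.25 ± 0.12, FDR 4.39e-13), NEUROG2 (−2.16 ± 0.24, FDR 1.67e-06) and NHLH2 (−1.74 ± 0.16, FDR 6.14e-08) responded less in tumors, and these 3 were called. TCF3 (0.84 ± 0.11, FDR 5.12e-06), TCF12 (0.42 ± 0.10, FDR 0.00214) and TCF4 (−0.44 ± 0.08, FDR 0.000178) also differed, by less than 2-fold. NEUROD1 did not pass the test (−0.01 ± 0.10, FDR 0.9999), and NEUROG1 gave no usable estimate because cells held no counts of it.

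Control tumors were compared with DMSO cells over all 17 libraries. Here 42.9% of all genes were called (31.5% up, 11.4% down), the median over all genes was 0.25, and tumor growth cannot be told apart from the kit and the series. Of the leukocyte markers, 3 of 4 tested were higher in control tumors, and their sum was 2.56 to 4.37 CPM there against 0.791 to 0.968 CPM in DMSO cells, where ITGAM, CD3E and AIF1 were at 0. Of the Schwann cell markers, 3 of 5 tested were higher and 2 lower, with a sum of 6.68 to 8.75 CPM in control tumors against 27.3 to 30.8 CPM in DMSO cells, where SOX10 and S100B were at 0. Of the endothelial markers, 1 of 3 tested was higher, with a sum of 2.80 to 7.78 CPM in control tumors against 1.58 to 2.06 CPM in DMSO cells. Of 9 fibroblast markers, 2 were higher and 4 lower, and of the red cell markers 1 of 2 tested was higher. The 6 proliferation genes summed to 1336 to 1580 CPM in control tumors and 2374 to 2407 CPM in DMSO cells, with 2 of 6 called lower. The mitochondrial share of counts was 3.42% to 5.74% in control tumors and 2.11% to 2.18% in DMSO cells. The part of these differences in the values of the members and of the other lists was not tested. NEUROG2, NHLH1 and NEUROG1 were higher in control tumors and TCF3 was lower, 4 of 8 members in all, with a member median of 0.30. NEUROG2 ranged from 47.3 to 82.2 CPM with a median of 72.6 CPM in control tumors, against 6.63 and 5.68 CPM in DMSO cells (3.46 ± 0.19, FDR 1.49e-10). NHLH1 was at 72.2 to 87.2 CPM in control tumors against 16.6 and 16.5 CPM in DMSO cells (2.26 ± 0.09, FDR 5.90e-14). NEUROG1 held 44 counts over the 5 control tumors, or 0.45 CPM, against 0 in DMSO cells, which puts it at least 10.3-fold higher against a floor of 3 counts over the DMSO group. NHLH2 was 1.83-fold higher (0.87 ± 0.11, FDR 1.90e-06), under the fold threshold.

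TCF3 was at 90.0 to 105 CPM in control tumors against 305 and 310 CPM in DMSO cells (−1.65 ± 0.07, FDR 2.23e-13), the only member called lower in a comparison of groups. TCF12 (−0.54 ± 0.07), TCF4 (−0.34 ± 0.06) and NEUROD1 (−0.28 ± 0.07) were lower by less than 2-fold. The summed E protein level per kilobase was 94.6 ± 4.1 in control tumors (n = 5) and 164 ± 0.27 in DMSO cells (n = 2). The ID to E protein ratio was 0.188 to 0.456 in control tumors and 2.11 in both DMSO libraries, and in RA tumors it was 0.202 to 0.291.

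Set in order over the 6 groups on the 17-library scale, the members followed different courses. NEUROG2 was lowest in cells with DMSO or up to 3 days of ATRA (means 5.72 to 6.16 CPM, ranges overlapping), higher at 6 days (30.4 ± 0.86 CPM) and highest in tumors (74.9 ± 7.3 CPM in RA tumors and 68.1 ± 13 CPM in control tumors, overlapping). NHLH1 and NHLH2 had their highest level at 6 days of ATRA (170 ± 0.21 and 316 ± 0.95 CPM), above all tumors. NHLH2 averaged 173 ± 27 CPM in RA tumors and 192 ± 21 CPM in control tumors. TCF3 ran the other way, highest with DMSO (307 ± 3.9 CPM), lower at each later time, and lowest in RA and control tumors (100 ± 11 and 97.8 ± 6.6 CPM, overlapping). TCF12 was highest with DMSO (263 ± 3.3 CPM), and its ranges at 6 days, in RA tumors and in control tumors overlapped. TCF4 was highest at 6 days (774 ± 3.9 CPM) and lowest in control tumors (357 ± 19 CPM), and RA tumors (451 ± 10 CPM) overlapped with DMSO cells (452 ± 0.013 CPM). The means of NEUROD1 lay between 344 and 456 CPM.

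The genes whose log2 CPM followed each member most closely were listed by Pearson's r, as a description. Points within a series share a kit and, in part, a group mean. Over all 17 libraries, NEUROG2 was closest to GPM6A (r = 0.992), a membrane glycoprotein gene of neurons, TCF4 to SNAP25 (0.975), which encodes a protein of synaptic vesicle fusion, and NHLH2 to CD59 (0.980). PLXND1 (0.991) and TMEM104 (0.990) were among the 3 genes nearest to TCF3. NEUROD1 was closest to AMOT (0.955), TCF12 to EYA1 (0.947), and NHLH1 to the transcript AL021707.2 (0.989). Over the 8 libraries of cells alone, NHLH1 was closest to DDR2, NHLH2 to SOX11, a factor of young neurons, and NEUROG2 to CHST1 (r = 0.9995 each). TCF3 and TCF12 shared 2 of their 3 nearest genes there, RHOU and CDH7.

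Genes taken here as targets of proneural factors were given by a list of 29, chosen with results of these data known. Some of its genes are also in the lists below. At 6 days 11 of the 26 tested rose and 3 fell (18.8% of all genes rose and 12.3% fell), with a median of 0.65 against 0.04 over all genes. ST18, a zinc finger factor gene, rose most (2.96 ± 0.04), with 175 ± 0.67 CPM at 6 days and 22.5 ± 1.4 CPM with DMSO, followed by the Notch ligand gene DLL4 (1.98 ± 0.19) and TBR1 (1.95 ± 0.27), a factor of cortical neurons. The somatostatin receptor gene SSTR2 fell (−1.89 ± 0.02). At 3 days none had risen and 4 had fallen (5.45% of all genes rose and 2.43% fell). In tumors none of the 29 was called between RA and control (0.284% of all genes were), and 3 had an FDR under 0.05, as had 1.62% of all genes. SCRT1, RCOR2 and MYT1, which encode transcriptional repressors of neuronal cells, had FDRs of 0.0126, 0.0363 and 0.0412 and were 1.44-fold, 1.39-fold and 1.25-fold higher in RA tumors, under the fold threshold (named after their values were seen). In the interaction term, 10 of 29 were called negative and 3 positive (13.1% and 7.78% of all genes), with a median of −0.16 against −0.12 over all genes.

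**Figure D4:**
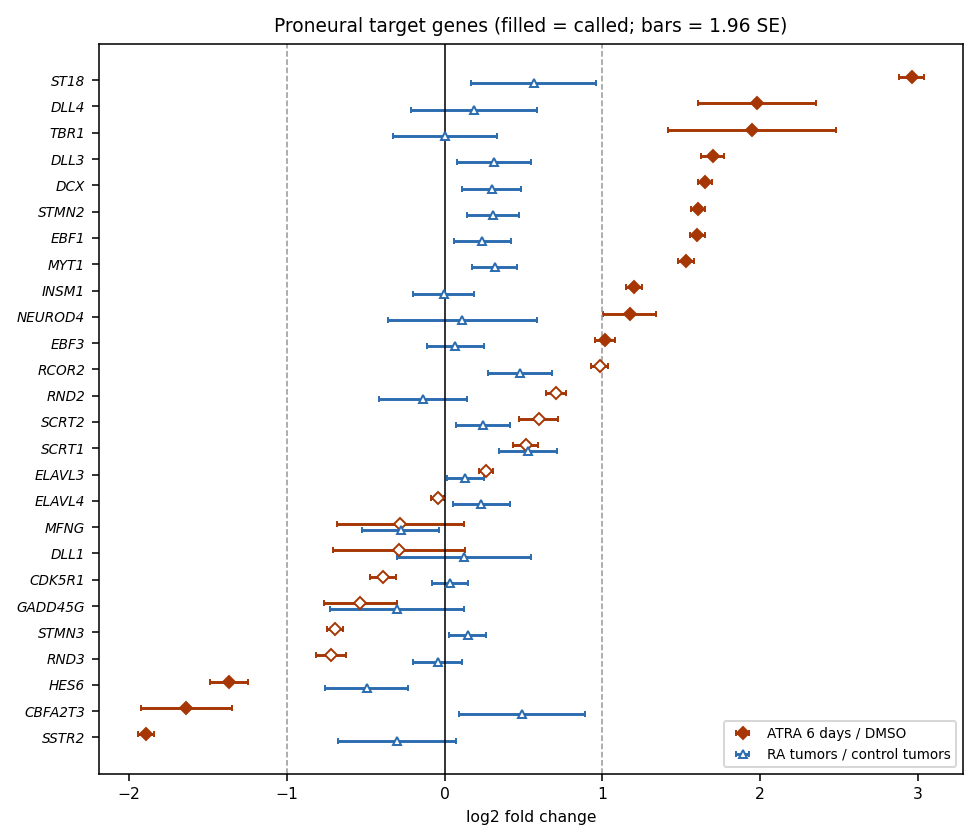
Log2 fold change of the 26 proneural target genes tested in cells, at 6 days of ATRA against DMSO and in RA tumors against control tumors, with 95% intervals from the SE; filled symbols were called. ST18 is highest at 6 days (2.96), and no gene passes the 2-fold lines in tumors.

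Other tissue-specific bHLH activators were followed as a list. Of 37 listed, 21 were tested in cells. At 6 days 3 rose and 9 fell (18.8% and 12.3% of all genes), with a median of −0.60. BHLHE22 (−3.56 ± 0.30) and PTF1A (−3.22 ± 0.61), both genes of neuronal subtypes, fell from low levels, and SCX, a tendon factor gene, rose (4.11 ± 0.57) on 67 counts over both 6-day libraries against 4 over both DMSO libraries. In control tumors against DMSO cells 11 of 25 rose and 6 fell (31.5% and 11.4% of all genes). OLIG3 was at 5.43 CPM in control tumors and at 0 in DMSO cells, at least 124-fold higher against the same floor. NEUROD6, a relative of NEUROD1 found in young cortical neurons, was at 117 ± 9.3 CPM in control tumors and 0.86 ± 0.02 CPM in DMSO cells (7.08 ± 0.16), and ATOH8 fell (−6.22 ± 0.37). None of 20 tested was called between RA and control tumors, where 0.284% of all genes were.

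Repressors and cofactors of the same network were followed in the same way. Of 9 repressors of the HES and HEY families and their relatives BHLHE40 and BHLHE41 tested in cells, 5 rose and 2 fell at 6 days (18.8% and 12.3% of all genes), with a median of 1.25. BHLHE40 (2.02 ± 0.08) rose from the first day onward, and HES7 (3.18 ± 0.74, on 35 counts over both 6-day libraries against 4 over both DMSO libraries), HES2 (1.57 ± 0.33) and BHLHE41 (1.40 ± 0.36) rose at 6 days. Of 11 cofactors of E proteins and other bHLH factors, 1 rose and 3 fell at 6 days, against the same shares of all genes (median −0.29). LMO3, a LIM-only cofactor gene known as a neuroblastoma oncogene, fell (−4.85 ± 0.35), and its level was 0.104 ± 0.02 CPM at 6 days against 3.11 ± 0.04 CPM with DMSO. CBFA2T3 (−1.64 ± 0.15), a corepressor that E proteins recruit, and LMO4 (−1.44 ± 0.07) fell, and CBFA2T2 rose (1.05 ± 0.04). In control tumors against DMSO cells 3 of 13 cofactors rose and 2 fell (31.5% and 11.4% of all genes). LMO2 held 231 counts over the 5 control tumors against 2 over both DMSO libraries, and LDB2 364 against 7. LMO3 rose (2.65 ± 0.44), opposite in sign to its value at 6 days of ATRA, and LMO1 fell (−1.58 ± 0.34). No repressor (9 tested) and no cofactor (13 tested) was called between RA and control tumors, where 0.284% of all genes were.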

How the data were processed

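RNA of cells and tumors was sequenced, and the authors deposited expected counts per gene from RSEM 1.3.3, made from reads cut by Trim Galore 0.4.4 and placed on hg38 by STAR 2.7.10a. The annotation release, the strand setting of the counting and any removal of mouse reads are not given in the sources used here. The deposited expected counts were rounded to whole numbers. Genes were filtered with filterByExpr (minimum count 10) and scaled by TMM, and groups were compared with edgeR 4.0.16 (R 4.3.3) in 3 fits, of 8 libraries of cells (20237 genes), 9 of tumors (21098 genes) and all 17 (25787 genes). P-values were adjusted by Benjamini-Hochberg over all genes tested (FDR). Biological variation (BCV) came to 2.65%, 13.9% and 11.0% in these 3 fits. The SE is the size of the log2 fold change over the square root of F. Likeness used log2 CPM with a prior count of 2. The tests were checked on simulated counts.

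All 8 members are named, with at most the 4 most changed called genes of each other list and the 3 genes most like each member. Members and lists were chosen with earlier results of these data known. The alternatives were RLE scaling, DESeq2 1.42.0, no filter on low counts, a fit of the compared groups alone, a replicate block and leaving out each library. Floors and bounds cover counting error only. Some genes of the lists and of the likeness ranking are counted but not reported here by name.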

Additional observations from a re-analysis of the deposited data

Results flagged for a closer look

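In control tumor 4, ID1 was at 15.8 CPM, where the other 4 control tumors held 1.08 to 1.70 CPM, and ID3 was at 6.83 CPM, where the others held 1.25 to 1.88 CPM. Its ratio of the summed ID level to the summed E protein level was 0.456, against 0.188 to 0.233 in the others. NEUROG2 in RA tumor 1 was at 68.2 CPM, below the 82.1 to 83.3 CPM of the other 3 RA tumors. TCF12 in RA tumor 4 was at 189 CPM, above the 163 to 168 CPM of the others. Each of these 5 values lay apart from its group by Dixon's criterion, out of 32 group values looked at. Chance sets apart about 1 in 20 of independent values. Those of control tumor 4 are not independent, since they share a library and the ratio includes ID1 and ID3.

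Of 8 members tested, 6 had an FDR under 0.05 in the interaction term between tumors and culture. With the fold threshold as well, 3 were called, against 20.9% of all genes. The share of all genes at an FDR under 0.05 alone was not counted for this term. The log2 differences of the tumor effect minus the 6-day effect were −2.16 for NEUROG2, −3.25 for NHLH1, −1.74 for NHLH2, 0.84 for TCF3, −0.44 for TCF4 and 0.42 for TCF12.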

How the results depend on the processing

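Of 638 member values recomputed under the alternatives, 623 kept both their direction and their side of the call, no member call was gained or lost, and 15 changed sign, all of them not called. These were NEUROG2 at 1 day (−0.198 to 0.0242 without single libraries) and at 3 days (−0.111 to 0.111 without single libraries, 0.00166 with the compared groups alone), TCF4 at 3 days (−0.0170 with RLE scaling, −0.0186 with DESeq2, −0.00322 to 0.0242 without single libraries), TCF3 in RA against control tumors (−0.000449 with the replicate block, −0.0354 to 0.0736 without single libraries), and NEUROD1 in the interaction term (0.0336 with RLE scaling, 0.0366 with DESeq2, 0.0874 with no filter, −0.0609 to 0.0333 without single libraries). The cause was not tested. DESeq2 called 337 genes at 1 day (edgeR 554), 540 between 3 days and 1 day (edgeR 827) and 118 between RA and control tumors. Between RA and control tumors, edgeR called 60 genes, 124 with no filter, 12 with the replicate block and 24 to 160 without single libraries, namely 24 without RA tumor 2, 28 without RA tumor 3, 33 without RA tumor 1 or control tumor 5, 34 without control tumor 3, 91 without control tumor 2 and 160 without RA tumor 4. The FDR of TCF4 there was 0.1166 with the block. Same-numbered libraries did not deviate together (correlations of −0.03 to 0.01 in cells and −0.33 to 0.11 in tumors, against −0.15 to 0.37 for different numbers in tumors), so the numbers were not treated as pairs, and the block moved no other count of calls by over 1.5 times. Culture groups hold 2 libraries each, and NEUROG1 has at most 14 counts per library. Without the filter on low counts its difference between RA and control tumors was −0.26 ± 0.45 (edgeR, FDR 0.866).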
